A study of Mus musculus with 12 samples.

Results

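NK-type lectin receptors are surface proteins first described on natural killer (NK) cells that are also carried by cytotoxic T lymphocytes (CTL). The set described here is made of 6 mRNAs, Klrk1, Klrd1, Klrc1, Klrc2, Klre1 and Klrg1, picked by gene symbol from the 11022 mRNAs of the expression table, in which all 6 were present. They were measured by RNA sequencing in 12 cultures of CTL grown from P14 mice, whose CD8+ T cells carry 1 transgenic T cell receptor (TCR) for the viral peptide gp33. Every culture came from female P14 mice aged 9 to 13 weeks, was primed for 48 h with gp33 peptide at 100 ng/mL, interleukin 2 at 20 ng/mL and interleukin 12 at 2 ng/mL, and was then expanded for 5 days in interleukin 2 at 20 ng/mL. On day 7 there were 4 groups of 3 cultures, all still in interleukin 2: unstimulated, retriggered through the TCR for 4 h with gp33 peptide at 100 ng/mL (TCR), and retriggered with peptide together with either 10 µM IC87114, which blocks the p110δ form of the lipid kinase PI3K (PI3Kdi), or 2 µM PD184252, which blocks MEK, the kinase that activates ERK (MEKi). DMSO was the vehicle. The replicates are biological, started from the lymphoid organs (lymph node or spleen) of 3 animals, but the labels do not say whether a replicate number follows 1 mouse through the groups. Neither inhibitor was given without peptide, and 1 dose of each and 1 time point were used.

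The receptors fall into activating and inhibitory kinds. NKG2D, encoded by Klrk1, is an activating homodimer that binds stress-induced proteins related to MHC class I and signals through the adaptor DAP10. CD94, encoded by Klrd1, has almost no tail of its own and forms dimers with NKG2A (Klrc1), which carries inhibitory motifs, or with NKG2C (Klrc2) and NKG2E (Klrc3), which pair with activating adaptors; these dimers bind Qa-1, a non-classical MHC class I molecule. NKR-E1, encoded by Klre1, pairs with KLRI proteins, and KLRG1, encoded by Klrg1, is an inhibitory receptor for cadherins that is widely used as a mark of terminal effector CD8+ T cells.

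Klrk1, Klrd1, Klrc1, Klrc2 and Klre1 lie together in the NK gene complex on mouse chromosome 6, and Klrg1 lies on the same chromosome outside that group (GRCm38, GENCODE M21). Klre1 (Entrez gene 243655, 129577905 to 129585827) and Klrd1 (Entrez gene 16643, 129591782 to 129598775) are on the plus strand. Klrk1 (Entrez gene 27007, 129610323 to 129623864), Klrc2 (Entrez gene 16642, 129647496 to 129660689), Klrc1 (Entrez gene 16641, 129666015 to 129678973) and Klrg1 (Entrez gene 50928, 122270596 to 122282882) are on the minus strand. No exon of the 6 genes overlaps an exon of another annotated gene. Klrc2 shares stretches of sequence with Klrc1 and with the neighbouring Klrc3, which limits how far reads from those stretches can be told apart. Of the 100-base stretches of Klrc1 transcripts, 14.6% also occur in Klrc2, and of those of Klrc2, 4.92% occur in Klrc1 and 2.17% in Klrc3, whereas the share was 0% for Klrk1, Klrd1, Klre1 and Klrg1. These shares are over all GENCODE transcripts, which for Klrc2 hold 5812 exon bases. Reads were counted on RefSeq genes, and the RefSeq transcripts of Klrc2 hold 782 exon bases. Shares within the RefSeq exons were not computed, and the Klrc2 shares given can understate them. The longest coding run that Klrc1 and Klrc2 have in common is 124 bases, shown in capitals with 12 coding bases on either side (mRNA sense, 5′ to 3′; GRCm38, minus strand, across 2 exons, chr6:129677191-129678311 for Klrc1 and chr6:129658710-129659993 for Klrc2), because a read of 100 bases that lies within the capitals fits both genes.
Klrc1: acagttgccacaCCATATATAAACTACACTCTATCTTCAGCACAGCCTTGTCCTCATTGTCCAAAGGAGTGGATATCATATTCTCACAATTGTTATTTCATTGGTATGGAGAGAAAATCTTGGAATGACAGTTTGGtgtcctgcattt
Klrc2: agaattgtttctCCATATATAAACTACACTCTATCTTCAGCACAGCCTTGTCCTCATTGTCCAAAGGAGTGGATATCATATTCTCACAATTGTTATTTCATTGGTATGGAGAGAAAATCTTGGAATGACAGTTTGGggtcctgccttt
Klrc2 and Klrc3 share a longer coding run, of 209 bases.

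The sequences upstream of Klrk1 and Klrc1 are shown, as their windows of 250 bases hold no annotated exon. RefSeq start sites (GRCm38.p6) were listed for 4 of the 6 genes, Klrk1, Klrc1, Klrc2 and Klre1. The 250 bases before the start site were searched on both strands for 4 short motifs of factors known in effector T cells: FOXO (TGTTTAC), AP-1 (TGANTCA), RUNX (TGTGGTT) and T-box (GGTGTGA). The windows, on the minus strand and read 5′ to 3′ towards the gene (chr6:129623865-129624114 for Klrk1 and chr6:129678974-129679223 for Klrc1), have motif matches in capitals.
Klrk1: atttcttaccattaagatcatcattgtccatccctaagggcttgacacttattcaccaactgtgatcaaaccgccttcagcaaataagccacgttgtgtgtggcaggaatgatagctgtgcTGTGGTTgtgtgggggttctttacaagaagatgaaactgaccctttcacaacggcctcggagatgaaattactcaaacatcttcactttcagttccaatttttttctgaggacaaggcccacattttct
Klrc1: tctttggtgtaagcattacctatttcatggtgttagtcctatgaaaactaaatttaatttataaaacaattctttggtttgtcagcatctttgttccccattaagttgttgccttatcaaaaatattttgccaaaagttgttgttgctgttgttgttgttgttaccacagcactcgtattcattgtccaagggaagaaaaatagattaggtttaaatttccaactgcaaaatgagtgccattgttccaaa
Klrk1 holds 1 RUNX match, which starts 129 bases before the start site, and Klrc1 holds 0 matches. Klrc2 also held 0 matches in the 157 bases that precede its annotated exons, and the Klre1 windows lie inside annotated exons and were not searched. Among 32536 distinct windows of 250 bases, 3.17% hold the FOXO motif, 6.73% the AP-1 motif, 4.41% the RUNX motif and 3.33% the T-box motif. The 1 match and the 0 matches thus describe these exact letters only, and variants of the motifs were not searched.

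The values are FPKM, fragments per kilobase of exon scaled to library size, as deposited by the authors after TMM scaling, and are given as mean ± SD (n = 3 cultures). The effective depth estimated from the steps between low values was 7860000 to 13260000 reads per culture. Changes were fitted to log2(FPKM + 0.1) of all 11022 mRNAs with limma, and adjusted p is its Benjamini-Hochberg value over all of them. An mRNA is called where adjusted p is under 0.05 and the change exceeds 2-fold, and is said to rise or fall where adjusted p is under 0.05. P values weigh the difference of group means against the spread between replicate cultures, pooled over the 4 groups and moderated across mRNAs. The main fit has no term for the animal. In bulk samples fewer cells with an mRNA and less of it per cell cannot be told apart. The summed FPKM of all mRNAs ranged from 470420 to 666922 per culture. Rescaling to a common sum (the TPM scale) moved the median log2 change of all mRNAs from -0.01 to -0.41 for TCR against unstimulated, from 0.02 to 0.19 for PI3Kdi against TCR and from 0.01 to 0.26 for MEKi against TCR. The share of called mRNAs that were higher moved with it, from 44.4% to 22.1%, from 26.6% to 52.7% and from 28.1% to 61.5%.

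**Figure D1:**
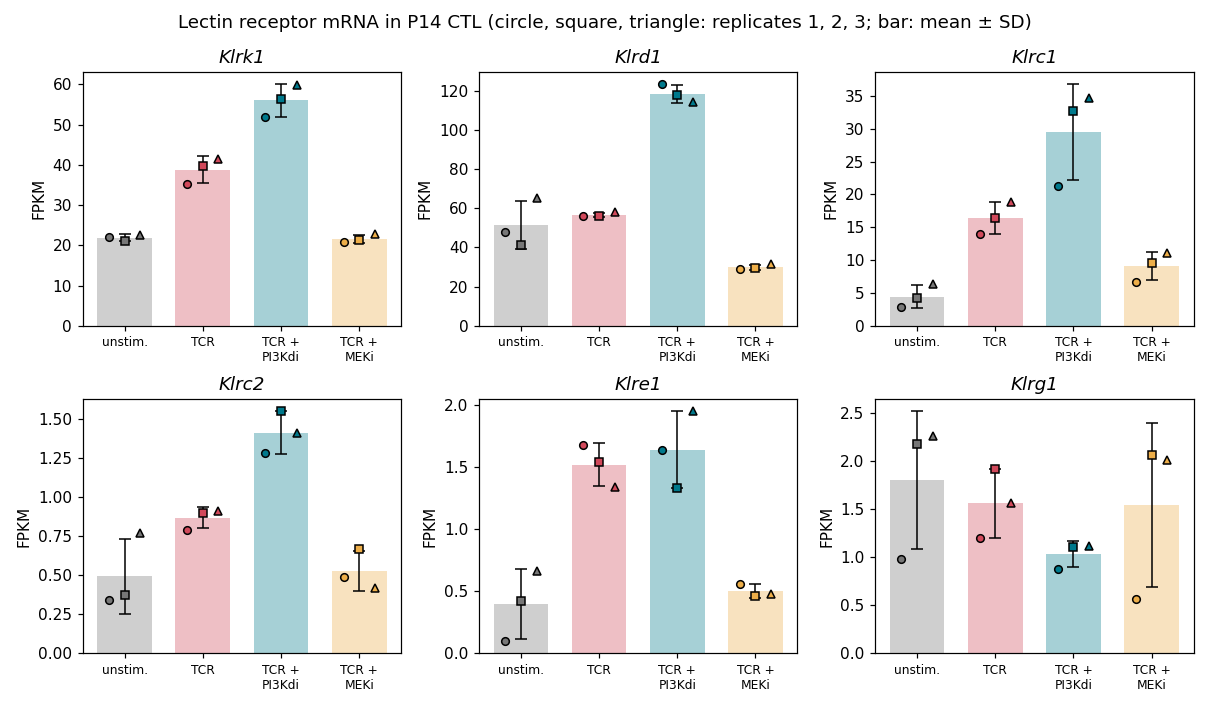
Abundance of the 6 receptor mRNAs (FPKM, linear axes from 0) in unstimulated, TCR, TCR + PI3Kdi and TCR + MEKi CTL, with 1 point per culture (n = 3) and bars for mean ± SD. Klrk1, Klrd1, Klrc1 and Klrc2 are highest in every PI3Kdi culture, Klre1 is high with and without PI3Kdi, and the Klrg1 groups overlap except for TCR and PI3Kdi.

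Klrk1, encoding the activating receptor NKG2D, was abundant in unstimulated CTL, rose upon TCR retriggering, rose further with PI3Kdi and was back at the unstimulated level with MEKi. Its FPKM was 22.09, 20.97 and 22.64 in unstimulated replicates 1, 2 and 3, and 35.2, 39.7 and 41.6 after TCR triggering. It was 51.8, 56.3 and 59.9 with PI3Kdi and 20.8, 21.2 and 22.8 with MEKi. No TCR culture overlapped an unstimulated culture, no PI3Kdi culture overlapped a TCR culture, and the MEKi and unstimulated ranges did overlap. TCR triggering raised Klrk1 1.77-fold (95% interval 1.59 to 1.97, log2 fold change 0.82, SE 0.07, limma adjusted p = 1.05e-07). PI3Kdi added a further 1.44-fold over TCR alone (log2 fold change 0.53, SE 0.07, adjusted p = 0.000127). MEKi lowered it against TCR alone, with a log2 fold change of -0.84 (SE 0.07, adjusted p = 7.13e-07). The difference between MEKi and unstimulated CTL was -0.02 on the log2 scale, with an interval of -0.18 to 0.13 (adjusted p = 0.818). Klrk1 was above 69.2% of all mRNAs in unstimulated CTL by mean FPKM and above 87% with PI3Kdi.

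Klrd1, encoding the CD94 chain, was the most abundant of the 6 in every culture and had the largest response to PI3Kdi, with little change upon TCR triggering alone. Unstimulated CTL were at 47.7, 41.3 and 65.1 FPKM and TCR cultures at 56.1, 56.0 and 58.1. With PI3Kdi the values were 123.5, 117.7 and 114.5 FPKM, and with MEKi 29.0, 29.3 and 31.5. The unstimulated cultures spanned the TCR values, all PI3Kdi cultures lay far above every other culture, and all MEKi cultures lay below every other culture. The TCR effect had a log2 fold change of 0.17 (SE 0.11, adjusted p = 0.201), and it was 0.35 without unstimulated replicate 3 (adjusted p = 0.000399) and -0.24 on the TPM scale (adjusted p = 0.0376). PI3Kdi raised Klrd1 2.09-fold over TCR alone (interval 1.77 to 2.47, log2 fold change 1.06, SE 0.11, adjusted p = 1.53e-05). MEKi lowered it against TCR (log2 fold change -0.92, SE 0.11, adjusted p = 2.43e-05) and, unlike Klrk1, also took it below unstimulated CTL (log2 fold change -0.75, adjusted p = 4.46e-05). The test of whether Klrd1 and Klrk1 differ in that respect was not run.

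Klrc1, encoding the inhibitory partner NKG2A, showed the largest rise upon TCR triggering of the more abundant members, Klrk1, Klrd1 and Klrc1. By mean FPKM it was above 29.9% of all mRNAs in unstimulated CTL and above 75.6% with PI3Kdi. It was at 2.79, 4.18 and 6.35 FPKM in unstimulated CTL and at 13.9, 16.5 and 18.9 after triggering. With PI3Kdi it reached 21.2, 32.7 and 34.7 FPKM, and with MEKi it was at 6.73, 9.53 and 11.01. The 4 groups did not overlap, and in each of them replicate 1 was lowest and replicate 3 highest. TCR triggering raised Klrc1 3.81-fold (interval 2.61 to 5.56, log2 fold change 1.93, SE 0.25, adjusted p = 8.18e-06). The further rise with PI3Kdi was 1.77-fold (interval 1.21 to 2.58, adjusted p = 0.0284) and the fall with MEKi had a log2 fold change of -0.86 (SE 0.25, adjusted p = 0.0158). With the replicate number as a block these had adjusted p = 0.000171 and 5.96e-05, and all 3 same-numbered pairs went one way in each. Over 15 alternative settings each, the adjusted p went up to 0.109 for PI3Kdi (above 0.05 in 5, among them without TCR replicate 1 or 2 and without PI3Kdi replicate 2 or 3) and up to 0.0784 for MEKi (above 0.05 in 2, without MEKi replicate 1 and without TCR replicate 3). With MEKi Klrc1 was still called higher than in unstimulated CTL (2.09-fold, interval 1.43 to 3.05, adjusted p = 0.00219).

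Klrc2, encoding the activating partner NKG2C, was present at a far lower level and rested on about 3 to 13 reads per culture. It was at 0.34, 0.37 and 0.77 FPKM in unstimulated CTL and 0.79, 0.90 and 0.91 after TCR triggering, so that the ranges did not overlap but nearly met. PI3Kdi cultures were at 1.28, 1.55 and 1.41 FPKM and MEKi cultures at 0.49, 0.67 and 0.42. The TCR effect had a log2 fold change of 0.77 (SE 0.24, adjusted p = 0.0104), but with voom on approximate reads the adjusted p was 0.0730, without unstimulated replicate 1 it was 0.0553 and on the TPM scale it was 0.124. PI3Kdi against TCR gave 0.65 (interval 0.13 to 1.16, adjusted p = 0.0628). MEKi against TCR gave -0.64 with an adjusted p of 0.0490, which was above 0.05 in 9 of 14 alternatives and reached 0.219 with voom. The contrast between the inhibitors was larger: MEKi against PI3Kdi had a log2 fold change of -1.29 (SE 0.24, adjusted p = 0.000994).

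Klre1, encoding NKR-E1, was also scarce, at about 1 to 21 reads per culture (2 to 30 with its RefSeq exon length). It was higher in TCR than in unstimulated and MEKi cultures. Unstimulated CTL were at 0.10, 0.42 and 0.66 FPKM and TCR cultures at 1.68, 1.54 and 1.34. PI3Kdi cultures were at 1.64, 1.33 and 1.95 FPKM and MEKi cultures at 0.56, 0.46 and 0.48. All TCR and PI3Kdi cultures lay above all unstimulated and MEKi cultures, and the former 2 groups overlapped, as did the latter 2. TCR triggering raised Klre1 3.76-fold on the FPKM + 0.1 scale (interval 2.25 to 6.29, adjusted p = 0.000183). MEKi lowered it against TCR, with a log2 fold change of -1.43 (SE 0.35, adjusted p = 0.00511). PI3Kdi against TCR gave 0.09 with an interval of -0.65 to 0.84 (adjusted p = 0.869).

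Klrg1, encoding the cadherin receptor, passed the test in none of the 6 comparisons as fitted, although alternative settings took 2 of them past it. It was at 0.98, 2.18 and 2.26 FPKM in unstimulated CTL, 1.20, 1.92 and 1.57 after TCR triggering, 0.88, 1.11 and 1.12 with PI3Kdi and 0.56, 2.07 and 2.01 with MEKi. Replicate 1 was lowest in each of the 4 groups. The ranges overlapped in every pair of groups except TCR and PI3Kdi, where all TCR cultures were higher, on about 6 to 41 reads per culture. The fitted TCR effect was -0.14 on the log2 scale with an interval of -0.97 to 0.70 (adjusted p = 0.772). Its intervals were -1.37 to 0.30 for PI3Kdi against TCR (adjusted p = 0.344), -1.02 to 0.66 for MEKi against TCR (adjusted p = 0.753) and -0.48 to 1.19 for MEKi against PI3Kdi (adjusted p = 0.531). Without MEKi replicate 1, the last of these was 0.92 with an adjusted p of 0.0350. PI3Kdi against unstimulated gave -0.67 with an interval of -1.51 to 0.17 (adjusted p = 0.151). It passed the test without unstimulated replicate 1 (-1.04, adjusted p = 0.0361) and with the replicate number as a block (adjusted p = 0.0270).

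**Figure D2:**
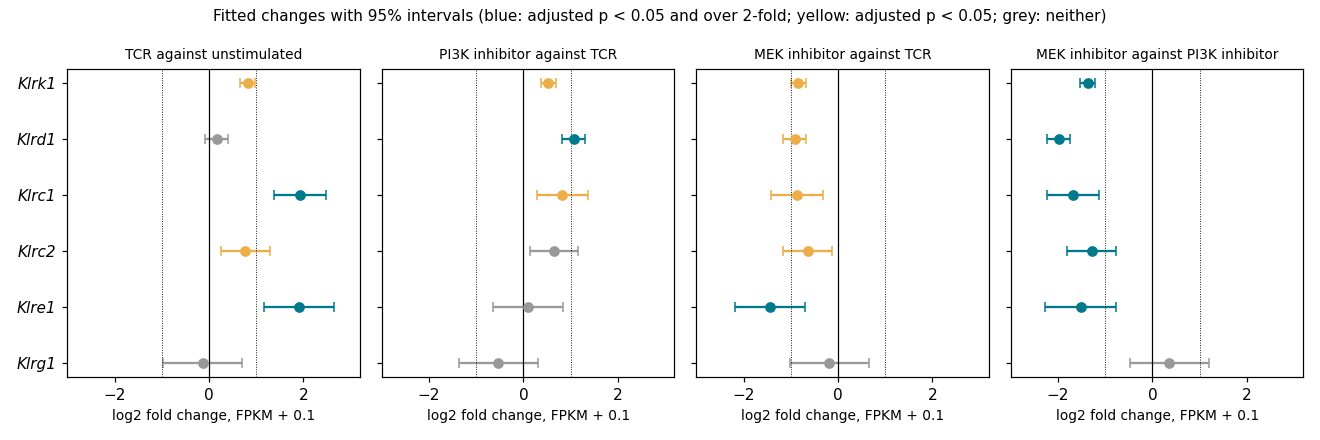
Fitted log2 fold change of FPKM + 0.1 (x axes) with its 95% interval for each receptor mRNA (rows) in 4 comparisons (panels; 3 cultures per group), coloured by whether adjusted p is under 0.05 with or without a change over 2-fold (dotted lines at 1 and -1). In the comparison of MEKi with PI3Kdi, 5 of 6 mRNAs lie left of -1 and Klrg1 has an interval across 0.

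The first comparison asked which receptor mRNAs respond when CTL meet antigen again. TCR triggering called 2 of the 6 higher, Klrc1 and Klre1, where 8.87% of all mRNAs were called higher, and 0 lower, where 11.1% were. Counting changes of any size, 4 of 6 rose (Klrk1, Klrc1, Klrc2 and Klre1) against 33.6% of all mRNAs. Their median log2 change was 0.80, and that of all mRNAs -0.01. With a pseudocount of 1, 1 was called, Klrc1, and without unstimulated replicate 3 Klrc2 was called as well.

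The second comparison asked how blocking PI3K p110δ changed these mRNAs in CTL given peptide. As PI3Kdi was not given without peptide, an effect on the TCR response cannot be told apart from one that unstimulated CTL would also show. PI3Kdi against TCR called 1 of 6 higher, Klrd1, where 0.499% of all mRNAs were called higher, and 0 lower, where 1.38% were. At any size 3 of 6 rose (Klrk1, Klrd1 and Klrc1) and 12.7% of all mRNAs did. The median log2 change of the 6 was 0.59. On the TPM scale, or without PI3Kdi replicate 1, Klrc1 was called as well. For Klrk1 and Klrc1 TCR triggering and PI3Kdi changed the mRNA in the same direction, upwards, and for Klrd1 the larger step came with PI3Kdi.

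The third comparison asked the same of blocking MEK, with the same limit. MEKi against TCR called 1 of 6 lower, Klre1, where 2.51% of all mRNAs were called lower, and 0 higher, where 0.980% were. At any size 5 of 6 were lower (Klrk1, Klrd1, Klrc1, Klrc2 and Klre1) and 18.2% of all mRNAs were. Their median log2 change was -0.85. Without MEKi replicate 3 Klrc1 was called too, and with a pseudocount of 1, 0 members were called. Both inhibitor comparisons use the same 3 TCR cultures.

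MEKi against PI3Kdi, which is the test of the difference between the inhibitor effects, called 5 of 6 lower, where 1.71% of all mRNAs were called lower, and 0 higher, where 1.39% were. At any size the same 5 fell against 14.4% of all mRNAs. The log2 fold changes were -1.37 for Klrk1 (SE 0.07, adjusted p = 1.37e-08), -1.98 for Klrd1 (SE 0.11, adjusted p = 1.96e-08), -1.69 for Klrc1 (SE 0.25, adjusted p = 0.000168), -1.29 for Klrc2 and -1.52 for Klre1 (SE 0.35, adjusted p = 0.00418). Klrd1 was at 29.9 ± 1.33 FPKM with MEKi against 119 ± 4.58 with PI3Kdi. With a pseudocount of 1, which shrinks scarce mRNAs, 3 were called, Klrk1, Klrd1 and Klrc1.

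Set against unstimulated CTL, the PI3Kdi cultures had 5 of 6 called higher, where 7.16% of all mRNAs were called higher, and at any size the same 5 against 31.7%. Klrc1 was 6.73-fold higher (interval 4.62 to 9.82, adjusted p = 2.51e-07), Klre1 4.01-fold, Klrc2 2.67-fold, Klrk1 2.55-fold and Klrd1 2.35-fold. MEKi cultures had 1 of 6 called higher than unstimulated CTL, Klrc1, where 6.95% of all mRNAs were. At any size 1 was higher (28.9% of all mRNAs) and 1 lower, Klrd1 (30.7%). The Klrc1 call was lost without unstimulated replicate 1 (log2 fold change 0.78), without MEKi replicate 3 (0.91), on the TPM scale (0.92) and with a pseudocount of 1 (0.92).

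Ratios of FPKM, a level per exon length, set the mRNAs of the CD94 dimer chains side by side within cultures. They depend on the exon lengths the authors used, which are not given in the sources used here, and no test of them was run. Within cultures Klrd1 exceeded Klrc1 12.4 ± 4.06 times in unstimulated CTL, 3.50 ± 0.482 times after TCR triggering, 4.24 ± 1.38 times with PI3Kdi and 3.41 ± 0.783 times with MEKi. All unstimulated ratios, 9.88 to 17.1, lay above all others, which overlapped. Klrc1 exceeded Klrc2 between 8.21 and 26.2 times in single cultures, a ratio that rests on few Klrc2 reads and on genes that share stretches of sequence. Klrd1 exceeded Klrk1 2.34 ± 0.478 times in unstimulated CTL, 1.47 ± 0.109 times after TCR triggering, 2.13 ± 0.240 times with PI3Kdi and 1.39 ± 0.00674 times with MEKi.

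Across the 12 cultures, log2(FPKM + 0.1) of the 5 NK gene complex members was correlated with r from 0.644 (Klrd1 and Klre1) to 0.907 (Klrk1 and Klrc2), and Klrg1 with each of them with r from -0.27 to -0.09. The cultures share 4 group means, so such values describe the group pattern. Among 9899 mRNAs with mean FPKM of at least 1, those most like Klrk1 were Atxn1 (r = 0.986), Dgka (r = 0.986), encoding a diacylglycerol kinase, and Mtf2 (r = 0.982). Dgka was at 41.8 ± 3.42 FPKM in unstimulated CTL, 71.0 ± 5.23 after TCR triggering, 92.0 ± 4.95 with PI3Kdi and 39.1 ± 2.82 with MEKi. Klrd1 was most like Zfp512 (r = 0.957), Ube2b (r = 0.956) and Golt1b (r = 0.956). Klrc1 was most like Ptpn3 (r = 0.987), Fasl (r = 0.970), encoding the death ligand of CTL, and Parp8 (r = 0.965). Klrc2 was most like Yipf4 (r = 0.952), Nrd1 (r = 0.946) and Mtf2 (r = 0.927), and Klre1 like Caml (r = 0.949), Mapk11 (r = 0.938) and Mterfd2 (r = 0.937). The best matches of Klrg1 were lower, Fgf13 (r = 0.826), Ly6c2 (r = 0.806) and Maged2 (r = 0.794).

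Activating receptors of this family need adaptors and kinases, of which 16 of 18 listed were measured, and Tyrobp, encoding DAP12, was not analysed here. TCR triggering called 3 higher (Sh2d1b1, Lcp2 and Fyn) and 1 lower (Syk), PI3Kdi against TCR called 0, and MEKi against TCR called 1 lower, Sh2d1b1. Of all mRNAs, TCR triggering called 8.87% higher and 11.1% lower, PI3Kdi 0.499% and 1.38%, and MEKi 0.98% and 2.51%. At any size 6 of the 16 changed with PI3Kdi against TCR, and 25.6% of all mRNAs did. Hcst, encoding the DAP10 adaptor of NKG2D and named here outside the rule for that reason, was at 41.2 ± 2.67 FPKM in unstimulated CTL, 48.4 ± 3.61 after TCR triggering, 43.8 ± 5.23 with PI3Kdi and 42.5 ± 0.852 with MEKi. Neither inhibitor moved it past the test: PI3Kdi against TCR gave -0.15 (adjusted p = 0.195) and MEKi against TCR -0.19 (adjusted p = 0.0858). Sh2d1b1, encoding the SAP-related adaptor EAT-2, was at 0.56, 0.67 and 0.95 FPKM in unstimulated CTL, 2.72, 2.11 and 2.21 after triggering, 2.09, 1.83 and 2.25 with PI3Kdi, and 0.44, 0.44 and 0.31 with MEKi. MEKi against TCR gave a log2 fold change of -2.30 (SE 0.19, adjusted p = 5.69e-07). The T cell kinase genes Lck and Fyn and the adaptor gene Lcp2, encoding SLP-76, were at high levels, Lck from 193 ± 3.74 with PI3Kdi to 291 ± 4.57 FPKM in unstimulated CTL. Syk was scarce in all groups, between 0.02 and 0.41 FPKM. Pik3cd, which encodes p110δ itself, fell upon TCR triggering from 221 ± 10.8 to 119 ± 4.52 FPKM (log2 fold change -0.89, adjusted p = 2.27e-09) and was at 210 ± 12.4 FPKM with PI3Kdi (log2 fold change against TCR 0.82, adjusted p = 3.07e-07) and 127 ± 2.68 with MEKi.

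Inhibitory receptors such as NKG2A and KLRG1 act through phosphatases, of which all 3 listed were measured. Ptpn6, encoding SHP-1, was at 20.95, 20.77 and 20.75 FPKM in unstimulated CTL, 29.8, 28.8 and 33.4 after TCR triggering, 20.3, 18.5 and 21.2 with PI3Kdi and 69.5, 65.4 and 75.1 with MEKi. All MEKi cultures were thus above every other culture, and MEKi against TCR was called higher (log2 fold change 1.19, SE 0.07, adjusted p = 2.23e-08), while Klrc1 was lower in the same cultures. Inpp5d, encoding SHIP1, was called lower after TCR triggering, from 56.7 ± 3.11 to 19.9 ± 1.34 FPKM (log2 fold change -1.51, adjusted p = 6.49e-11), and stayed between 19.0 and 25.3 FPKM in all stimulated cultures. Ptpn11, encoding SHP-2, lay between 20.4 and 25.1 FPKM in all 12 cultures.

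**Figure D3:**
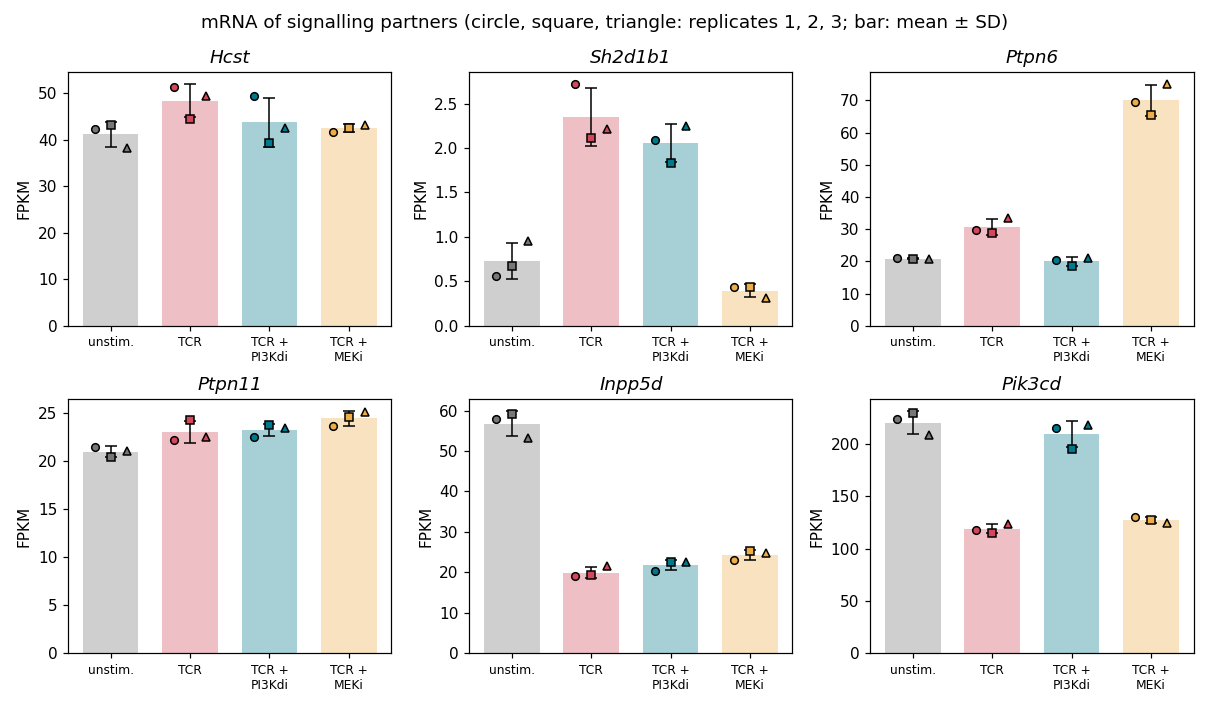
FPKM (linear axes from 0) of 6 mRNAs of receptor signalling partners in the 4 groups, 1 point per culture with mean ± SD (n = 3). Ptpn6 is highest with MEKi (65.4 to 75.1 FPKM), Sh2d1b1 is high with peptide alone and with PI3Kdi, and Pik3cd with PI3Kdi lies near the unstimulated level.

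Ligands of these receptors can be made by the CTL themselves. Of 9 listed NKG2D ligand genes 1 was measured, Ulbp1, encoding MULT1, which was at 32.0 ± 4.88 FPKM in unstimulated CTL, 18.7 ± 3.15 after TCR triggering (log2 fold change -0.77, adjusted p = 0.000954), 22.9 ± 6.13 with PI3Kdi and 28.1 ± 0.814 with MEKi. Of the 10 genes for Qa-1 and the loading of its peptide, 8 were measured and 2 were called, both lower after TCR triggering. They were Tap1 (log2 fold change -1.03, adjusted p = 9.24e-10) and Tap2 (log2 fold change -1.17, adjusted p = 1.01e-08), which encode the peptide transporter, whereas the Qa-1 gene itself, H2-T23, which was picked after its values were seen, rose by less than 2-fold. H2-T23 was at 134.0, 124.5 and 139.4 FPKM in unstimulated CTL, 232.5, 203.8 and 219.2 after triggering, 214.2, 168.3 and 208.0 with PI3Kdi and 169.2, 164.2 and 179.9 with MEKi. The TCR and unstimulated cultures did not overlap (log2 fold change 0.72, SE 0.08, adjusted p = 1.92e-06), and all MEKi cultures lay below the TCR cultures (log2 fold change -0.35, adjusted p = 0.00413). B2m stood at a mean of 2671 FPKM before and 2830 after triggering (adjusted p = 0.322). No gene of this list was called with either inhibitor against TCR, where 1.88% of all mRNAs were called with PI3Kdi and 3.49% with MEKi. After TCR triggering, 11.1% of all mRNAs were called lower. Cdh1, encoding the KLRG1 ligand E-cadherin and the 1 measured gene of 3, was at 8.38 ± 0.383 FPKM in unstimulated CTL and between 1.20 and 1.54 in all 9 stimulated cultures (TCR against unstimulated, log2 fold change -2.62, adjusted p = 1.21e-10).

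Of 42 other genes listed for the NK gene complex, most of them lectin receptors, 13 were measured, 4 of which (Gabarapl1, Magohb, Styk1 and Csda) do not encode lectins. TCR triggering called 4 of the 13 higher (Cd69, Gabarapl1, Klrc3 and Olr1) and 2 lower (Klrb1c and Klrb1f). PI3Kdi against TCR called 1 higher (Klra5) and 1 lower (Olr1), MEKi against TCR called 1 lower (Olr1), and MEKi against PI3Kdi called 3 lower (Klra5, Klrc3 and Styk1) and 0 higher. Their median log2 change was 0.91 for TCR against unstimulated, -0.06 for PI3Kdi, -0.46 for MEKi and -0.50 for MEKi against PI3Kdi. Of all mRNAs, TCR triggering called 8.87% higher and 11.1% lower, PI3Kdi 0.499% and 1.38%, and MEKi 0.98% and 2.51%. MEKi against PI3Kdi called 1.39% higher and 1.71% lower.

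Klra5, encoding a receptor of the Ly49 family, had the order of group means of Klrc1 and Klrc2. It was at 3.09, 2.42 and 3.99 FPKM in unstimulated CTL, 5.88, 6.04 and 6.91 after TCR triggering, 14.1, 13.6 and 16.7 with PI3Kdi and 4.74, 3.54 and 3.42 with MEKi. PI3Kdi against TCR gave a log2 fold change of 1.22 (SE 0.16, adjusted p = 0.000106) and MEKi against PI3Kdi -1.91 (adjusted p = 8.30e-07). Klrc3, the NKG2E gene, was at 0.53, 0.58 and 0.57 FPKM in unstimulated CTL, 1.08, 2.27 and 2.76 after triggering, 2.55, 3.79 and 3.31 with PI3Kdi and 0.95, 0.94 and 2.30 with MEKi, on about 4 to 26 reads per culture. The NK1.1 gene Klrb1c went the other way, from 5.35, 6.23 and 4.58 FPKM in unstimulated CTL to 1.87, 1.88 and 1.63 after triggering (log2 fold change -1.53, adjusted p = 4.79e-07). Klrb1f was at 1.10 to 1.98 FPKM in unstimulated CTL and at most 0.24 after triggering. Olr1 was listed at 0 in all unstimulated cultures and at 1.31 ± 0.180 FPKM after triggering, 0.517 ± 0.0473 with PI3Kdi and 0.240 ± 0.0529 with MEKi. The most abundant of the 13 were Csda and the activation marker gene Cd69, which ranged from 60.7 to 70.7 FPKM in unstimulated, 134 to 148 in TCR, 97.0 to 102 in PI3Kdi and 143 to 169 in MEKi cultures.

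**Figure D4:**
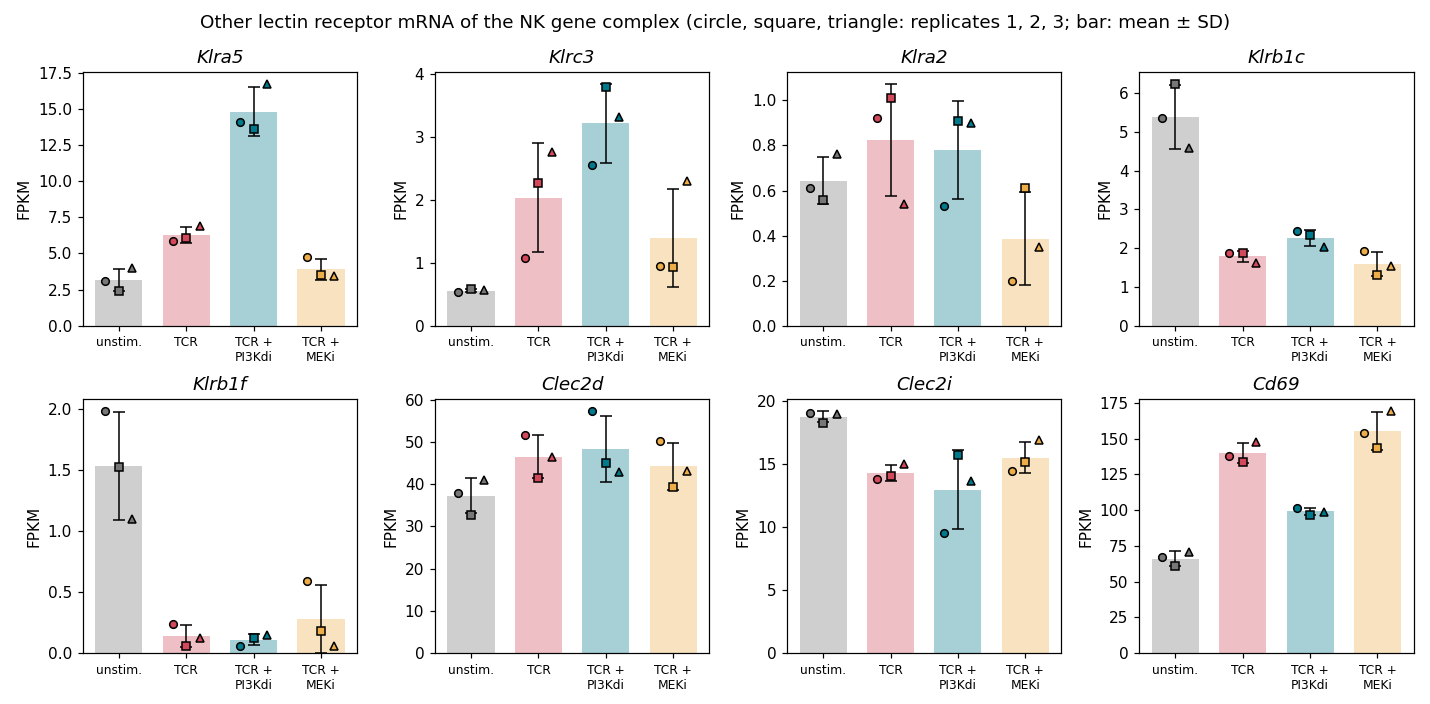
FPKM (linear axes from 0) of 8 other lectin receptor mRNAs of the NK gene complex in the 4 groups, 1 point per culture with mean ± SD (n = 3). Klra5 is highest with PI3Kdi (13.6 to 16.7 FPKM), and Klrb1c and Klrb1f are highest in unstimulated CTL.

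Receptors of other families that T cells have in common with NK cells did not follow a single pattern. Of 18 listed, 15 were measured, and TCR triggering called 7 higher and 4 lower. PI3Kdi against TCR called 0, and MEKi against TCR called 1 higher (Cd226) and 4 lower (Cd160, Ceacam1, Crtam and Tigit). Of all mRNAs, TCR triggering called 8.87% higher and 11.1% lower, PI3Kdi 0.499% and 1.38%, and MEKi 0.98% and 2.51%. At any size 7 of the 15 changed with PI3Kdi against TCR, and 25.6% of all mRNAs did. Crtam, encoding an adhesion receptor, went from 4.14 ± 0.731 to 835 ± 16.8 FPKM upon triggering and was at 522 to 587 with PI3Kdi and 264 ± 39.9 with MEKi. Cd160 was at 23.5 ± 2.19, 187 ± 3.55, 99.3 ± 3.91 and 48.4 ± 5.81 FPKM in the same order, so it was lower than with TCR alone with PI3Kdi (log2 fold change -0.92, adjusted p = 2.31e-06) and with MEKi (-1.96, adjusted p = 1.34e-09). Tigit, encoding an inhibitory receptor for nectin-like ligands, was at 19.6 ± 0.542, 121 ± 11.7, 202 ± 9.58 and 55.2 ± 3.55 FPKM. It was higher with PI3Kdi (log2 fold change 0.75, adjusted p = 4.33e-06) and lower with MEKi (-1.13, adjusted p = 2.60e-08) than with TCR alone. Ceacam1 was at 1.94 ± 0.293 FPKM after triggering and 0.17 to 0.47 with MEKi, and Lilrb4 was at 339 ± 6.92 after triggering and between 308 and 348 with MEKi.

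Of 14 genes listed for KLRG1-high effector cells and memory precursors, 12 were measured. TCR triggering called 5 higher (Cd27, Prdm1, Tbx21, Tcf7 and Zeb2) and 2 lower (Bcl2 and Id3). MEKi against TCR called 1 higher (Il7r) and 2 lower (Tbx21 and Zeb2). Of all mRNAs, 8.87% were called higher and 11.1% lower after TCR triggering, and 0.98% and 2.51% with MEKi. The T-bet gene Tbx21, known for its link to KLRG1-high effectors, was at 13.6 ± 1.20 FPKM in unstimulated CTL, 53.0 ± 6.73 after triggering, 28.8 ± 4.42 with PI3Kdi and 24.2 ± 0.381 with MEKi, while Klrg1 passed the test in no comparison as fitted. Zeb2 was at 6.48 ± 0.549 FPKM after triggering and 2.89 ± 0.433 with MEKi. Eomes was at 73.2 ± 3.72, 109 ± 3.09, 113 ± 2.30 and 75.4 ± 4.78 FPKM in unstimulated, TCR, PI3Kdi and MEKi cultures. Among the members, Klrc1, Klrc2 and Klre1 had the same order of group means.

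The cultures carried the markers of CD8+ T cells, with all 5 listed genes measured and a summed level of 1057 to 1402 FPKM. Of 6 listed NK cell markers 2 were measured, Klrb1c and Itga2, and Ncr1, Klra4, Klra7 and Klra8 were not analysed here. Their summed level was 5.06 to 6.78 FPKM in unstimulated CTL, 1.87 to 2.24 after TCR triggering, 2.49 to 2.84 with PI3Kdi and 1.51 to 2.08 with MEKi. It was thus highest in unstimulated cultures, where the members summed to 69.4 to 97.8 FPKM, and lower in PI3Kdi cultures, where they summed to 200 to 214. Among the peptide-treated groups, however, both sums were highest with PI3Kdi. The members summed to 109 to 122 FPKM after TCR triggering and 58.1 to 68.1 with MEKi. Klrb1c, itself a gene of the NK gene complex, made up most of the marker sum. The part of NK cells in the level of the members was not tested. Of the CD4 T cell markers Cd4 was measured, at 0.44 to 0.99 FPKM in unstimulated CTL, 2.54 to 2.87 after triggering, 1.96 to 3.65 with PI3Kdi and 0.28 to 0.66 with MEKi. Like Klrk1 it was higher after TCR triggering (log2 fold change 1.74) and lower with MEKi against TCR (-2.40). Unlike Klrk1 it did not rise past the test with PI3Kdi against TCR (0.08). The part of CD4 T cells in the Klrk1 results was not tested. The 3 gamma delta T and NKT, 4 B cell and 5 myeloid markers listed were not analysed here.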

How the data were processed

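RNA was sequenced from stranded mRNA libraries with paired reads of 100 bases. Per the labels and the study's methods, the authors aligned reads to mm10 with STAR 2.4.2a, counted RefSeq genes with Subread 1.5.0, removed mRNAs with low counts, scaled by TMM and deposited FPKM from edgeR. Whether counting used the strand is not given in the sources used here. Replicates were not pooled, 12 value columns were assigned by their headers, and 0 were left over.

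From these FPKM, log2(FPKM + 0.1) of 11022 mRNAs was fitted with limma 3.58.1 (R 4.3.3; 1 mean per group, all 12 samples, intensity trend) for 6 comparisons. The pseudocount understates changes of scarce mRNAs. The procedure was checked on simulated data. Members, lists and tests were chosen with earlier results of these data known. Named list genes were up to 4 with the largest called change and the 2 most abundant of each list, and the 3 mRNAs most correlated with each member. The PI3Kdi comparison of the KLRG1-high effector list is not reported here. Of the 11022 symbols, 10307 were matched to GENCODE M21 and 715 were not.

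The deposited FPKM give no read totals. Depth was inferred from how low FPKM, times RefSeq exon length, fall on whole reads: 53.5% to 62.2% of the 288 to 335 low values used in a sample came within 0.15 of a whole number (an even spread gives 30%). At that depth Klrk1 rested on about 561 to 2428 reads per sample, Klrd1 on 204 to 1209 and Klrc1 on 62 to 813. Reads of Klrc2, Klre1, Klrg1 and Klrc3 come from the exon length, searched for each, that makes their 12 values whole within 0.25 reads. That fit is thus by construction and is no check of the lengths. For Klre1 the length found was 914 bases against 1294 in RefSeq, which would give about 2 to 30 reads. All these read numbers cover counting error only.

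Same-numbered cultures shared deviations from their group means across 9899 mRNAs, with a correlation over 0.1 in every pair, for PI3Kdi against TCR (mean 0.356), MEKi against TCR (0.153), MEKi against PI3Kdi (0.144) and MEKi against unstimulated (0.135), but not for TCR or PI3Kdi against unstimulated. Alternatives were pseudocounts of 1 and 0.01, a filter at mean FPKM 1, quantile normalisation, the TPM scale, fitting without the other groups, replicate block, no trend, each sample left out and, added after seeing the data, limma's voom on approximate reads. Figures used Python 3.11.15 and matplotlib 3.10.9.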

Additional observations from a re-analysis of the deposited data

Results flagged for a closer look

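The comparison of MEKi with PI3Kdi tests the difference between the inhibitor effects, since both are taken against the same TCR cultures, and the mRNAs given here differed by more than 2-fold in it (limma, adjusted p under 0.05, n = 3 per group). Of the lectin receptors these were Klrk1 (log2 difference -1.37), Klrd1 (-1.98), Klrc1 (-1.69), Klrc2 (-1.29), Klre1 (-1.52), Klra5 (-1.91) and Klrc3 (-1.25), all higher with PI3Kdi than with MEKi. Other receptors lower with MEKi were Tigit (-1.87), Ceacam1 (-2.59), Crtam (-1.10), Cd160 (-1.04) and the scarce Fcgr3 (-1.19), while Cd226 was higher with MEKi (1.58). Styk1 of the NK gene complex was lower with MEKi (-1.16). The adaptor gene Sh2d1b1 (-2.13) and Cd4 (-2.48) were also lower with MEKi. Ptpn6, encoding the phosphatase SHP-1, was higher with MEKi (1.80). Klrd1 was the 1 member above TCR alone by over 2-fold with PI3Kdi, and it was below TCR alone with MEKi in all 3 cultures.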

How the results depend on the processing

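Of 534 member log2 changes recomputed under alternatives, 505 kept their direction and their side of the call, 10 lost a call, 5 gained one and 14 changed sign. A pseudocount of 1 moved the number of members called to 1 for TCR against unstimulated, 0 for MEKi against TCR, 3 for MEKi against PI3Kdi, 3 for PI3Kdi against unstimulated and 0 for MEKi against unstimulated, and the number of all mRNAs called from 2202 to 1405, from 207 to 90, from 385 to 201, from 341 to 150, from 1608 to 979 and from 1478 to 873 (the last 3 for MEKi against PI3Kdi, PI3Kdi against unstimulated and MEKi against unstimulated). By construction it shrinks scarce mRNAs. The TPM scale gave 2 members for PI3Kdi against TCR and 0 for MEKi against unstimulated. Leaving out 1 culture gave 1 to 2 members for PI3Kdi against TCR, 1 to 2 for MEKi against TCR, 0 to 1 for MEKi against unstimulated, 2 to 3 for TCR against unstimulated, 5 to 6 for PI3Kdi against unstimulated (the sixth is Klrg1, called lower without unstimulated replicate 1, -1.04) and 5 for MEKi against PI3Kdi. Signs changed on the TPM scale for Klrd1 after TCR (-0.24) and Klrg1 with MEKi against TCR (0.063). Leaving out 1 culture gave values on both sides of 0 for Klrg1 after TCR (-0.50 to 0.061), Klre1 with PI3Kdi against TCR (-0.033 to 0.23) and Klrg1 with MEKi against TCR (-0.47 to 0.39). For MEKi against unstimulated it did so for Klrk1 (-0.060 to 0.0051), Klrc2 (-0.049 to 0.44), Klre1 (-0.071 to 0.89) and Klrg1 (-0.68 to 0.25); of the 14, 1 had an adjusted p under 0.05, Klrd1 on the TPM scale. The cause was not tested. With replicate number as a block the members called stayed at 2, 1, 1, 5, 5 and 1, in the order of the comparisons above with PI3Kdi against TCR second, and Klrc1 had adjusted p = 0.000171 for PI3Kdi and 5.96e-05 for MEKi against TCR. In the block fit Klrg1 fell with PI3Kdi against unstimulated (-0.67, adjusted p = 0.0270). In that comparison the deviations of same-numbered cultures had a mean correlation of 0.021. Each of these groups, however, passed 0.1 in every same-numbered pair with MEKi (mean 0.144 for PI3Kdi and 0.135 for unstimulated). Few reads limit Klrc2, Klre1 and Klrg1.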

Other observations

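Klrg2, a lectin receptor gene on chromosome 6 outside the NK gene complex that was on no list and was picked after its values were seen, was at 0.0933 ± 0.0321 FPKM in unstimulated CTL, 0.937 ± 0.163 after TCR triggering, 1.00 ± 0.115 with PI3Kdi and 1.31 ± 0.104 with MEKi (n = 3 each). All its MEKi cultures (1.19 to 1.39 FPKM) lay above its TCR cultures (0.76 to 1.08), and the difference did not pass the test (log2 fold change 0.45, SE 0.19, limma adjusted p = 0.0756).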
